A study of Rattus norvegicus with 15 samples.

Results

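The Dlk1-Dio3 region is an imprinted stretch of rat chromosome 6 that carries a large group of miRNAs. The 30 miRNAs described here are those of a fixed list of names from this region, matched to the systematic names in the array files, and they make up 30 of the 350 rat miRNAs on the array. The list falls into 7 miRNAs of the miR-127 to miR-136 end and 23 of the miR-379 to miR-410 end, and these ends were compared with each other throughout. All 30 were among the 231 miRNAs that could be tested, and 20 of them (6 of the miR-127 to miR-136 end and 14 of the miR-379 to miR-410 end) were detected on all 15 arrays. All 30 passed the filter on low values.

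In an imprinted region the maternal and paternal copies are used differently. Protein genes of this region, such as Dlk1, are read from the paternal copy, while its long non-coding RNAs and the miRNAs cut out of them come from the maternal copy. The miR-127 to miR-136 group lies antisense to the protein gene Rtl1, and the miR-379 to miR-410 group lies further along, in the host transcript Mirg. Several members are known from neurons, among them miR-134, which limits the growth of dendritic spines, and miR-431, which has been studied in the axon growth of sensory neurons.

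The arrays measured miRNAs in total RNA from the sciatic nerve of adult male rats, a strain not given in the sources used here. The groups were the uninjured nerve (day 0) and the nerve 1, 4, 7 and 14 days after injury, with 3 arrays each, and no other treatment or genotype is named. The labels disagree on the injury and the sample: the design text names a resection and a proximal piece of nerve, the treatment protocol names a crush and a short section of the damaged part, and the source label names proximal stumps. Nothing states that the arrays came from separate animals, so the p-values below measure the spread between these samples, which may be technical. In a whole nerve piece, fewer cells of a type and less RNA per cell cannot be told apart.

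Mature sequences are shown for the members on which the results turn: the neighbours that fell together on day 1, the close relatives of the miR-376 group that did not move alike, and the miRNAs by which the ends are called. Capitals mark the seed, bases 2 to 8, the part of a miRNA that pairs with its targets. They are written 5′ to 3′ from RefSeq (assembly GRCr8), in which 29 of the 30 members had an entry, 6 under the same name and 23 under a later name that gives the arm of the hairpin. The member with no entry was miR-136. Those 23 were assigned to an arm by the usual renaming, which was not checked against probe sequences. The first 4 lines are of the miR-127 to miR-136 end.
rno-miR-337: uUCAGCUCcuauaugaugccuuu
rno-miR-127: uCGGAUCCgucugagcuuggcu
rno-miR-434: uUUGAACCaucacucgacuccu
rno-miR-136*: cAUCAUCGucucaaaugagucu
rno-miR-379: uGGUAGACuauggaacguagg
rno-miR-411: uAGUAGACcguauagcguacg
rno-miR-299: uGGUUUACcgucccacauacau
rno-miR-323: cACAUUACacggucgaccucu
rno-miR-376c: aACAUAGAggaaauuucacgu
rno-miR-376b-5p: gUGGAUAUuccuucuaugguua
rno-miR-376b-3p: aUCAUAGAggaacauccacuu
rno-miR-376a: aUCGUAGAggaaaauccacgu
rno-miR-539: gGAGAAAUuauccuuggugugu
rno-miR-377: uGAAUCACacaaaggcaacuuuu
rno-miR-541: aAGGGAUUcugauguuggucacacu
rno-miR-410: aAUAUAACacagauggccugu

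All 29 sequences lie on the plus strand of chromosome 6, and each has a seed of its own, so no members share one. miR-337 (chr6:134321201-134321223) and miR-136* (chr6:134331383-134331404) bound the miR-127 to miR-136 end, whose 6 hairpins span 10.2 kb. miR-379 (chr6:134543460-134543480) and miR-410 (chr6:134579808-134579828) bound the miR-379 to miR-410 end, whose 22 hairpins span 36.3 kb after a gap of 212.1 kb. miR-379 and miR-411 differ in 7 of 21 bases, of which 1 lies in the seed. miR-376a and miR-376b-3p differ in 3 bases, miR-376a and miR-376c in 4, and miR-376b-3p and miR-376c in 5. Cross-hybridisation between these close relatives was not tested.

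A level is the log2 of a miRNA's intensity over the 75th percentile of the 164 miRNAs detected on every array, and differences between groups are on that log2 scale. Arrays of days 0 and 1 each filled a slide and a scan day of their own, so for every comparison with day 0 or with day 1 the slide and scan day cannot be told apart from the time. Day 4 had a slide of its own but shared its scan day with day 7 and with day 14 replicates 1 and 2, which lay on 1 slide with day 7. The third array of day 14 stood apart: it detected 172 miRNAs against 200 to 239 on the other 14 arrays, and 20 of the 30 members against 28 to 30. It also fixes which miRNAs set the scale, so the main counts are also given without it.

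On day 1 most of the region was lower than in uninjured nerve. Of the 30 members, 18 were called lower and 1 higher, against 43.3% and 16.5% of all miRNAs tested (limma, Benjamini-Hochberg adjusted p under 0.05). The median change of the members was -0.39 against -0.26 over all tested. Without day 14 replicate 3 the counts were 10 lower and 3 higher, beside 68 and 57 of the 234 miRNAs then tested. Without day 0 replicate 3 they were 15 and 3, beside 83 and 39 of 231. Leaving out day 14 replicate 2 gave 2 higher, beside 39 of 232. The members' median lay below that of all miRNAs tested by 0.14 to 0.24 under each of 5 scalings. These were the 75th percentile of the miRNAs detected everywhere, that of every miRNA on the array, quantile normalisation, no scaling and the deposited value table. Both percentile scalings and no scaling shift all miRNAs of an array alike, so they had to give the same difference (-0.14). Only quantile normalisation (-0.17) and the deposited table (-0.24) could change it. The members' own median ran from -0.54 to -0.22 over them, and that of all miRNAs tested from -0.40 to -0.05.

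On day 4 the region was mixed. The calls were 13 lower and 3 higher, against 44.6% and 19.9% of all miRNAs tested, and the members' median change was -0.06 against -0.26. The direction depended on the scaling. With the 75th percentile of every miRNA, 5 members were lower and 13 higher, beside 73 and 72 of all 231 miRNAs tested. The members' median ran from -0.21 to 0.25 over the 5 scalings. The median of all tested ran from -0.41 to 0.05, and the members lay above it under each scaling, by 0.03 to 0.20. With day 14 replicate 3 left out, the calls were 10 lower and 8 higher, beside 87 and 63 of the 234 miRNAs then tested. Leaving out day 0 replicate 3, day 4 replicate 2 or day 4 replicate 3 left 1 higher, beside 44, 41 and 41 of all tested.

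By day 7 the calls were 13 lower and none higher, against 45% and 16.9% of all miRNAs tested. At an unadjusted p under 0.05, limma gave 14 lower and again none higher. When day 14 replicate 3 was left out, the calls were 5 lower and 4 higher, beside 85 and 55 of the 234 miRNAs then tested. Scaled to the 75th percentile of every miRNA, they were 2 lower and 9 higher, beside 62 and 78 of 231. The members' median (-0.30) was within 0.04 of that of all miRNAs tested under each of the 5 scalings. On day 14 the calls were 20 lower and none higher, against 50.2% and 16.9%, with a median of -0.43 against -0.40 over all tested, and 21 lower and none higher at an unadjusted p under 0.05. Without day 14 replicate 3 the number lower was 11, beside 92 of 234 tested. With no scaling 1 was lower and 1 higher, beside 41 and 64 of 231. The share of the region called lower was thus close to that of all miRNAs on day 7, and on both days the counts moved with the scaling.

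**Figure D1:**
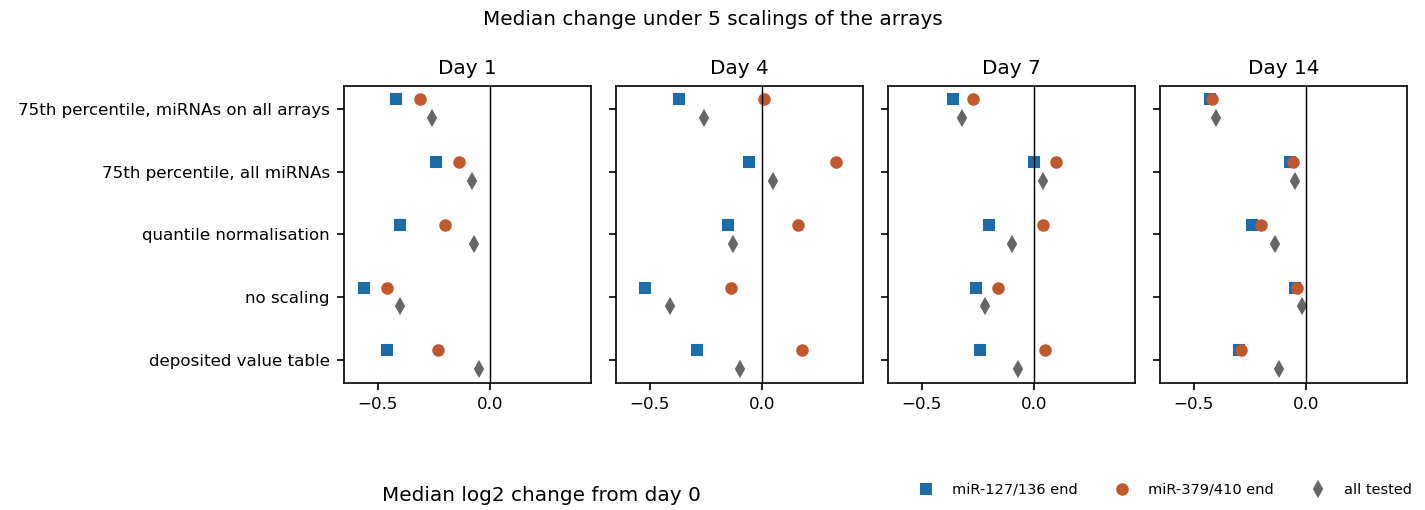
Median log2 change from day 0 (x axis) on days 1, 4, 7 and 14 under 5 scalings of the arrays (rows), for the 7 miRNAs of the miR-127 to miR-136 end (squares), the 23 of the miR-379 to miR-410 end (circles) and all miRNAs tested (diamonds). The squares lie to the left of the circles or beside them in every row. The widest gap is on day 4, where the ends' medians differ by 0.31 to 0.47. Rows with 1 factor per array, or none, have the same gap by construction.

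Calls that held in the same direction under all 5 scalings were fewer, and their number fell with time. On day 1, 11 members were lower in this sense, against 24.7% of all miRNAs tested. They were miR-136, miR-136*, miR-337, miR-434, miR-299, miR-329, miR-369-5p, miR-376b-5p, miR-376c, miR-379 and miR-411. On day 4 there were 4 (miR-136, miR-434, miR-376b-5p and miR-539), against 23.8%. On day 7 there were 2 (miR-434 and miR-539), against 20.3%, and on day 14 only miR-376b-5p, against 14.7%. No member was higher under all 5 scalings at any time, while 9.96%, 12.1%, 15.6% and 15.2% of all miRNAs tested were on days 1, 4, 7 and 14. With day 14 replicate 3 left out, the lower members numbered 10, 4, 2 and 2, of which 8, 4, 2 and 1 were the same miRNAs, and miR-323 was then higher on days 1 and 4 and miR-543* on day 4.

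**Figure D2:**
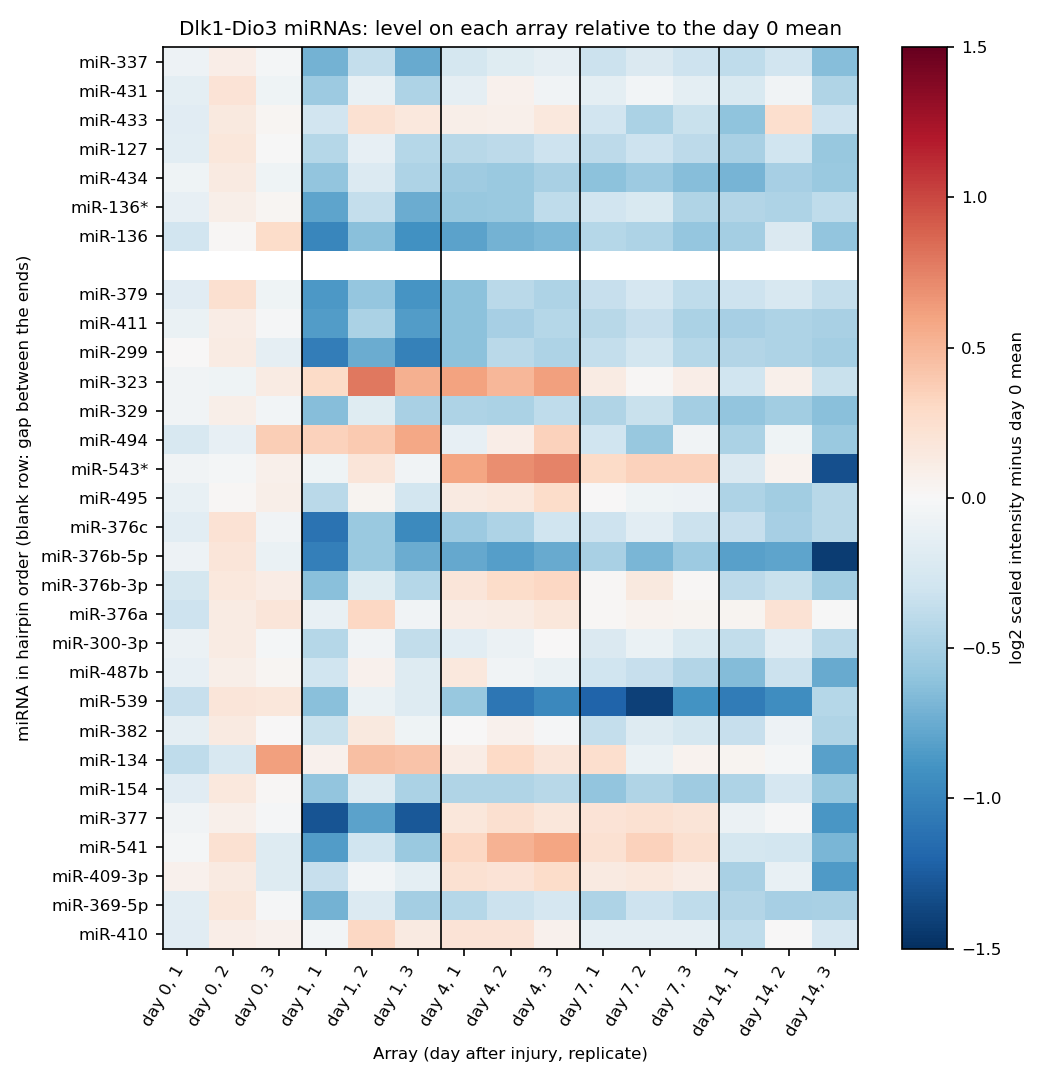
Level of each of the 30 miRNAs on each of the 15 arrays, as log2 scaled intensity minus the miRNA's day 0 mean (colour; blue is lower, red higher), in the order of the hairpins with a blank row between the ends. Day 1 columns are blue at miR-136, miR-379, miR-411, miR-299, miR-376c and miR-377, and day 4 columns turn red at miR-323, miR-543* and miR-541.

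At the miR-127 to miR-136 end, miR-136 showed the largest fall. Its level was -2.82, -2.52 and -2.26 on the day 0 arrays, -3.51, -3.16 and -3.44 on day 1, -3.34, -3.24 and -3.21 on day 4, -2.96, -3.00 and -3.11 on day 7, and -3.04, -2.75 and -3.12 on day 14. All arrays of days 1, 4 and 7 lay below all arrays of day 0, and on day 14 the arrays overlapped. The change was -0.84 ± 0.14 on day 1 (SE, n = 3 against 3; 1.79-fold lower, adjusted p = 3.75e-04) and -0.74 ± 0.14 on day 4 (adjusted p = 6.45e-04). On days 7 and 14 it was -0.49 ± 0.14 (adjusted p = 0.00965) and -0.44 ± 0.14 (adjusted p = 0.0175), but it held there under 2 and 1 of the 5 scalings. When day 14 replicate 3 was left out, neither was called (-0.33 and -0.27), and the day 14 call was also lost without day 0 replicate 3 (-0.30) and without day 14 replicate 1 (-0.40).

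miR-136* comes from the other arm of the same hairpin. Its levels were -3.79, -3.57 and -3.63 on day 0 and -4.45, -4.02 and -4.41 on day 1, without overlap, a change of -0.63 ± 0.11 (adjusted p = 5.63e-04). On days 4, 7 and 14 it was called lower by 0.50, 0.32 and 0.43, but on day 7 not without day 14 replicate 3 (-0.16).

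miR-434 was the most lasting fall at this end. Its levels were -0.68, -0.48 and -0.67 on day 0, -1.20, -0.82 and -1.07 on day 1, -1.14, -1.17 and -1.10 on day 4, -1.23, -1.15 and -1.25 on day 7, and -1.31, -1.11 and -1.17 on day 14. Each array after injury lay below each array of day 0. The changes were -0.42 ± 0.10 (adjusted p = 0.00317), -0.53 ± 0.10 (adjusted p = 5.06e-04), -0.60 ± 0.10 (adjusted p = 2.00e-04) and -0.59 ± 0.10 (adjusted p = 2.84e-04). It was lower under all 5 scalings on days 1, 4 and 7 and under 4 on day 14, when the change without scaling was -0.20. Without day 14 replicate 3 the day 1 change was -0.21 and not called (adjusted p = 0.0684).

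miR-127, which is complementary to the Rtl1 transcript, was lower by a smaller amount. Its levels were -0.82, -0.49 and -0.66 on day 0, -1.08, -0.78 and -1.09 on day 1, -1.07, -1.05 and -0.97 on day 4, -1.05, -0.97 and -1.05 on day 7, and -1.14, -0.95 and -1.23 on day 14. One array of day 1 overlapped with day 0, and the later ones did not. The changes were -0.32 ± 0.11 (adjusted p = 0.024), -0.37 ± 0.11 (adjusted p = 0.0105), -0.36 ± 0.11 (adjusted p = 0.0121) and -0.44 ± 0.11 (adjusted p = 0.00388), and they held under 2, 2, 1 and 3 of the 5 scalings. With day 14 replicate 3 left out, those of days 1, 4 and 7 were -0.11, -0.22 and -0.20 and not called, and that of day 1 was also lost (changes of -0.32 to -0.27) without day 0 replicate 2, day 0 replicate 3, day 1 replicate 1 or day 1 replicate 3.

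miR-337 was -3.09, -2.91 and -3.04 on day 0, -3.72, -3.37 and -3.77 on day 1 and -3.28, -3.20 and -3.15 on day 4. Its day 1 arrays lay below those of both other days, with a change from day 0 of -0.61 ± 0.12 (adjusted p = 7.92e-04). The later changes were -0.20, -0.28 and -0.43, of which the last was called, though not without day 14 replicate 3 (-0.24). miR-431 was called lower on day 1 (-0.37 ± 0.13, adjusted p = 0.0306; -0.16 and not called without that array) with overlapping arrays, and its other changes lay between -0.24 and -0.04. miR-433 was not called at any time, with changes between -0.37 and 0.11 against a standard error of 0.19.

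At the start of the miR-379 to miR-410 end, the neighbouring hairpins miR-379, miR-411 and miR-299 fell together on day 1. miR-379 was -1.43, -1.02 and -1.33 on day 0, -2.12, -1.84 and -2.15 on day 1, -1.87, -1.67 and -1.72 on day 4, -1.60, -1.51 and -1.64 on day 7, and -1.57, -1.50 and -1.62 on day 14. Every later array lay below every array of day 0, by most on day 1. Its changes were -0.78 ± 0.12 (adjusted p = 1.57e-04), -0.49 ± 0.12 (adjusted p = 0.00235), -0.33 ± 0.12 (adjusted p = 0.0265) and -0.30 ± 0.12 (adjusted p = 0.0345). Only that of day 1 held under all 5 scalings, and on days 7 and 14 the sign turned under some (changes up to 0.13 and 0.08). When day 14 replicate 3 was left out, the changes of days 7 and 14 were -0.17 and -0.18, not called. The day 7 call was also lost without day 7 replicate 1 or day 7 replicate 3, and the day 14 call without day 0 replicate 2 or day 14 replicate 1.

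miR-411 was -2.64, -2.43 and -2.56 on day 0 and -3.38, -3.02 and -3.38 on day 1. miR-299 was -2.46, -2.35 and -2.60 on day 0, -3.51, -3.22 and -3.48 on day 1, -3.08, -2.87 and -2.93 on day 4, and -2.83, -2.75 and -2.90 on day 7. In both, no injured array reached the day 0 range. The day 1 changes were -0.71 ± 0.10 for miR-411 (1.64-fold lower, adjusted p = 1.22e-04) and -0.93 ± 0.10 for miR-299 (1.9-fold lower, adjusted p = 1.34e-05). By day 7 they were -0.41 and -0.36, called under 1 of the 5 scalings each, and neither without day 14 replicate 3 (-0.25 and -0.20).

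Of the next 3 hairpins, miR-323 and miR-494 did not follow and miR-329 did. miR-323 was -5.42, -5.43 and -5.24 on day 0, -5.08, -4.57 and -4.83 on day 1, -4.76, -4.86 and -4.75 on day 4, -5.24, -5.35 and -5.26 on day 7, and -5.66, -5.29 and -5.70 on day 14. Its arrays of days 1 and 4 all lay above day 0, and those of days 7 and 14 overlapped with it. The changes of 0.54 ± 0.13 (1.45-fold higher, adjusted p = 0.00389) and 0.57 ± 0.13 (1.49-fold higher, adjusted p = 0.00224) were called under 4 of the 5 scalings. miR-494 was -1.13, -1.01 and -0.52 on day 0 and -0.54, -0.49 and -0.31 on day 1, an overlap at 1 array of day 0. Its change of 0.44 ± 0.19 was not called (adjusted p = 0.0624), though 3 of the other scalings called it, as did the fit without day 14 replicate 3 (0.65). miR-329, between miR-323 and miR-494, was called lower at each time: -2.04, -1.89 and -2.02 on day 0 against -2.62, -2.16 and -2.47 on day 1, a change of -0.43 ± 0.10 (adjusted p = 0.0035), and -0.58 ± 0.10 on day 14 (adjusted p = 4.30e-04). These calls of miR-329 held under 5, 4, 4 and 4 of the 5 scalings on days 1, 4, 7 and 14. Without day 14 replicate 3 its day 1 change was -0.22 and not called (adjusted p = 0.0616).

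**Figure D3:**
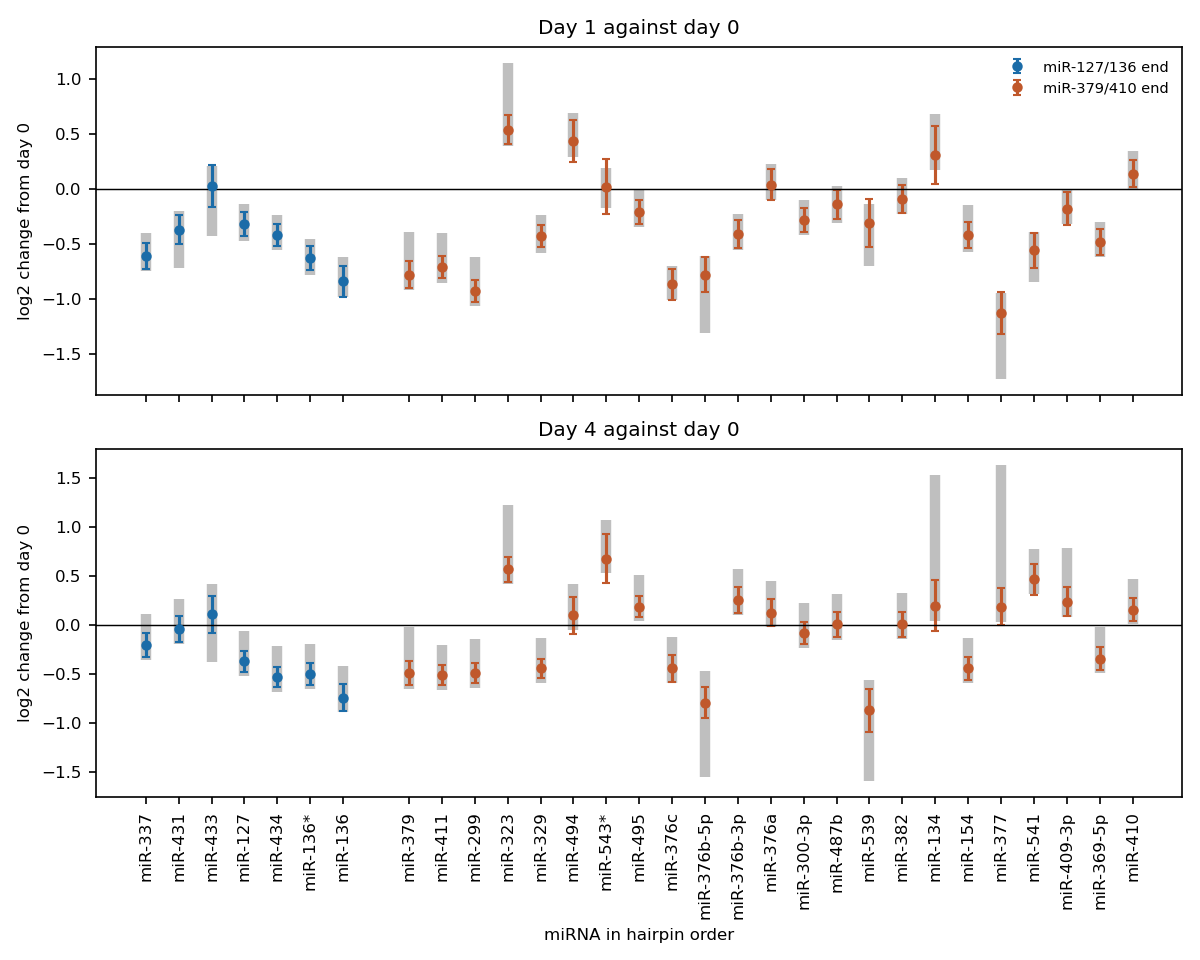
Log2 change from day 0 (y axis) for the 30 miRNAs in hairpin order (x axis) on day 1 (top) and day 4 (bottom); points and bars are the change and its standard error, and grey bars give the range over the 5 scalings. On day 1 the falls at miR-379, miR-411 and miR-299 stand directly beside the rise at miR-323, so neighbouring hairpins differ in sign.

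The miR-376 group, made of near-identical miRNAs from adjoining hairpins, split. miR-376c was -3.19, -2.81 and -3.08 on day 0 and -4.13, -3.58 and -3.98 on day 1, a change of -0.87 ± 0.14 (1.83-fold lower, adjusted p = 2.24e-04). miR-376a was -2.84, -2.40 and -2.34 on day 0 and -2.64, -2.22 and -2.58 on day 1. The first pair of groups was fully apart and the second overlapped, with a change of 0.04 ± 0.14 for miR-376a (adjusted p = 0.783). On days 4, 7 and 14 miR-376a stood at 0.13, 0.03 and 0.08 from day 0, called higher by 3, 3 and 4 of the other scalings, and miR-376c at -0.44, -0.27 and -0.41, of which the first and last were called, but not without day 14 replicate 3 (-0.29 and -0.32).

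miR-376b-3p fell and came back. It was -3.61, -3.19 and -3.23 on day 0, -3.97, -3.53 and -3.77 on day 1, -3.16, -3.07 and -3.03 on day 4, -3.33, -3.20 and -3.32 on day 7, and -3.74, -3.68 and -3.87 on day 14. The day 4 arrays were the highest and those of days 1 and 14 the lowest, with 1 array of day 1 inside the day 0 range. Against day 0 it was called lower on day 1 (-0.41 ± 0.13, adjusted p = 0.0134) and on day 14 (-0.42 ± 0.13, adjusted p = 0.0113), each under 3 of the 5 scalings. With day 14 replicate 3 left out, neither was called (-0.20 and -0.27), and day 4 was called higher (0.40).

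miR-376b-5p, from the other arm of that hairpin, stayed low. It was -5.54, -5.28 and -5.56 on day 0, -6.49, -6.02 and -6.21 on day 1, -6.23, -6.29 and -6.22 on day 4, -5.95, -6.15 and -6.01 on day 7, and -6.27, -6.25 and -6.88 on day 14, where 1 array did not detect it. No injured array reached the day 0 range. The changes were -0.78 ± 0.16 (adjusted p = 0.00147), -0.79 ± 0.16 (adjusted p = 0.00106), -0.58 ± 0.16 (adjusted p = 0.00863) and -1.0 ± 0.16 (adjusted p = 2.12e-04), under all 5 scalings except on day 7, where 3 called it. It has 4 probes, of which 1 stayed at the floor on the arrays of every group and 1 on most arrays, and both others were lower than on day 0 at each time (-0.84 and -0.82 on day 1).

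Other members of this end rose from day 1 to day 4, in a run of miR-543*, miR-495, miR-376c and miR-376b-3p and in another of miR-377, miR-541 and miR-409-3p. miR-541 was -4.41, -4.15 and -4.57 on day 0, -5.21, -4.68 and -4.93 on day 1, -4.07, -3.86 and -3.79 on day 4, -4.15, -4.03 and -4.14 on day 7, and -4.64, -4.65 and -5.06 on day 14. All day 1 arrays were below and all day 4 arrays above those of day 0, and the lowest array of day 7 equalled the highest of day 0 to 2 decimals. It was called lower on day 1 (-0.56 ± 0.16, adjusted p = 0.00801), higher on day 4 (0.47 ± 0.16, adjusted p = 0.0181) and lower on day 14 (-0.40 ± 0.16, adjusted p = 0.0365), under 4, 3 and 1 of the 5 scalings. When day 14 replicate 3 was left out, the day 14 change was -0.17 and not called, and day 7 was called higher (0.43).

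miR-543* was -5.45, -5.43 and -5.32 on day 0, -5.47, -5.22 and -5.45 on day 1, and -4.81, -4.70 and -4.66 on day 4. The day 4 arrays lay above all arrays of the other days, and the change from day 0 was 0.68 ± 0.25 (adjusted p = 0.031), called under 4 of the 5 scalings. miR-495 and miR-409-3p stood at 0.19 and 0.24 on day 4, not called there but higher under 3 and 1 of the other scalings, and without day 14 replicate 3 (0.34 and 0.38). They stood at -0.46 ± 0.11 (adjusted p = 0.00223) and -0.48 ± 0.15 (adjusted p = 0.0156) on day 14, the latter not called without that array (-0.20). These day 14 calls held under 3 and 1 of the 5 scalings.

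miR-377 could not be detected on any array of day 1, though it was on 2 arrays of day 0 and on all arrays of days 4 and 7. On the levels as scaled here, it was therefore at least 2.08-fold lower on day 1 than on day 0. It was likewise at least 2.36-fold higher on day 4 than on day 1. This bound sets the mean of the brighter group against, on each day 1 array, the higher of the lowest detected signal and the signal of miR-377 itself. The day 0 mean includes an array that did not detect miR-377, and the bound need not hold under other scalings. Its fitted day 1 change ran from -1.73 to -0.95 over the 5 scalings, was called under 4, and was -0.92 without day 14 replicate 3. miR-377 passed the filter only through days 4 and 7.

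miR-539 was called lower from day 4 on. It was -5.93, -5.41 and -5.42 on day 0, -6.21, -5.69 and -5.78 on day 1, -6.15, -6.67 and -6.55 on day 4, -6.79, -6.99 and -6.48 on day 7, and -6.64, -6.52 and -6.01 on day 14. The day 1 arrays overlapped with day 0 and those of days 4, 7 and 14 did not. The changes were -0.31 ± 0.22 (adjusted p = 0.245), -0.87 ± 0.22 (adjusted p = 0.00377), -1.17 ± 0.22 (2.25-fold lower, adjusted p = 4.94e-04) and -0.81 ± 0.22 (adjusted p = 0.0063). Those of days 4 and 7 held under all 5 scalings. That of day 14 held under 2, and 2 of the 3 arrays detected miR-539 there. Of its 4 probes, both brighter ones were lower on day 1 (-0.39 and -0.51) and on days 4, 7 and 14, and both others were at the floor on some arrays of day 0.

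**Figure D4:**
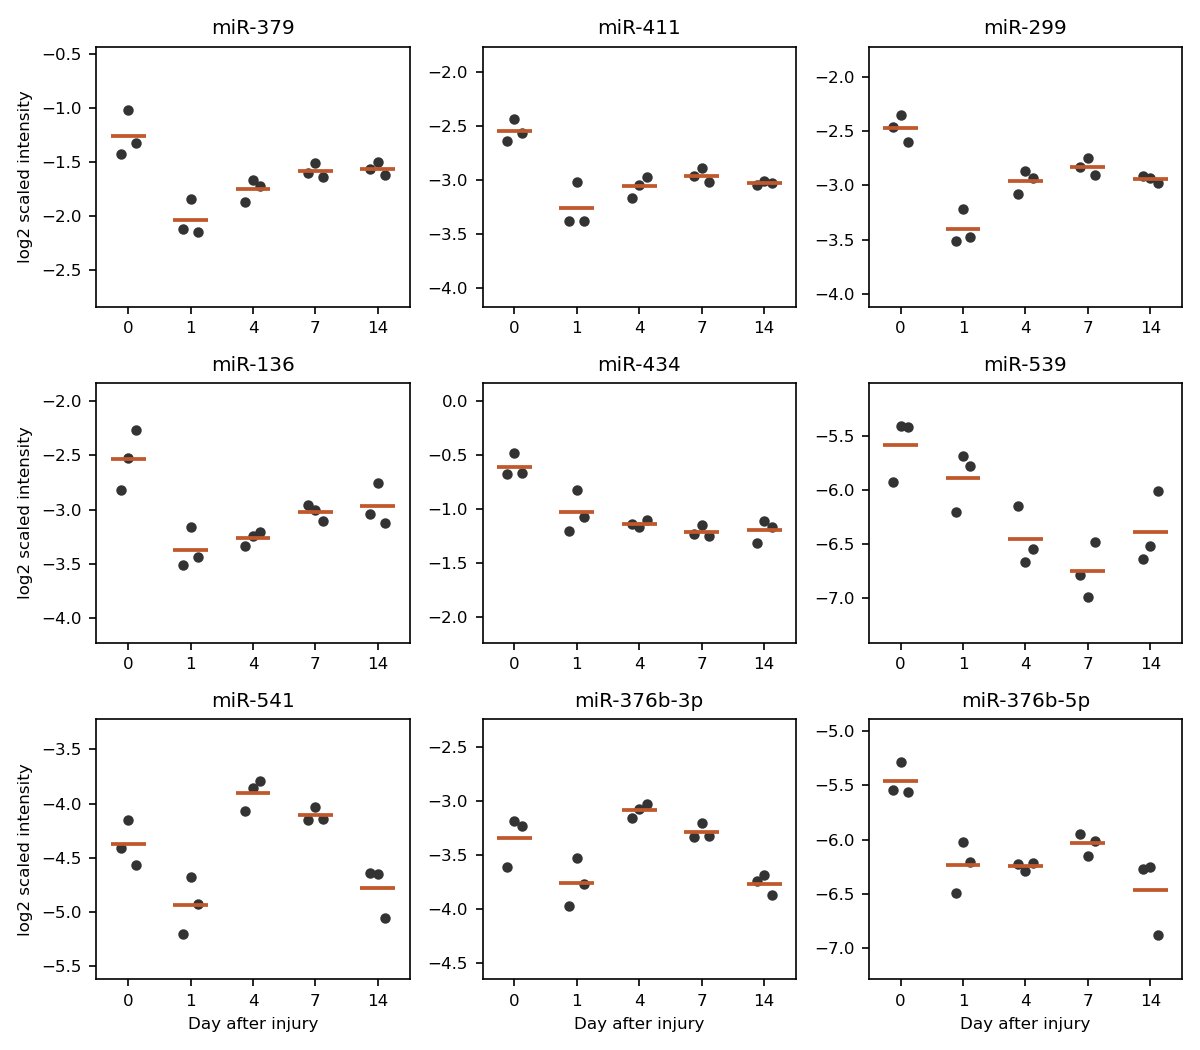
Level of 9 miRNAs on each array, as log2 scaled intensity (y axis, each panel spanning the same range), by day after injury (x axis); points are single arrays and bars are the means of 3. miR-379, miR-411 and miR-299 are lowest on day 1, miR-434 and miR-376b-5p stay below day 0, miR-539 is lowest on day 7, and miR-541 and miR-376b-3p peak on day 4.

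miR-410, the last hairpin, was -2.85, -2.58 and -2.61 on day 0, -2.72, -2.37 and -2.55 on day 1, -2.47, -2.48 and -2.62 on day 4, -2.82, -2.81 and -2.81 on day 7, and -3.06, -2.67 and -2.93 on day 14. Its arrays overlapped with day 0 at every time. The changes were 0.14 ± 0.12 (adjusted p = 0.334), 0.16 ± 0.12 (adjusted p = 0.25), -0.14 ± 0.12 (adjusted p = 0.333) and -0.21 ± 0.12 (adjusted p = 0.141), and 3 of the other scalings called it higher on days 1, 4 and 7. Without day 14 replicate 3 it was called higher on days 1 and 4 (0.35 and 0.31) and stood at 0.02 on day 7, and without day 14 replicate 2 it was called lower on day 14 (-0.31).

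miR-369-5p, near the far end of the region, was -3.54, -3.22 and -3.40 on day 0, -4.10, -3.59 and -3.90 on day 1, -3.81, -3.71 and -3.64 on day 4, -3.85, -3.70 and -3.77 on day 7, and -3.83, -3.89 and -3.87 on day 14. No injured array reached the day 0 range. The changes were -0.48 ± 0.12 (adjusted p = 0.00458), -0.34 ± 0.12 (adjusted p = 0.0264), -0.39 ± 0.12 (adjusted p = 0.0136) and -0.48 ± 0.12 (adjusted p = 0.00392), under 5, 4, 1 and 3 of the 5 scalings.

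Of the remaining members of this end, miR-154 was called lower at each time, by 0.42, 0.44, 0.53 and 0.43. Those calls held under 3, 4, 4 and 3 of the 5 scalings. miR-300-3p was called on days 1 (-0.28) and 14 (-0.32), under 2 and 1 of the 5 scalings. miR-487b was called on days 7 (-0.36) and 14 (-0.57), under 1 and 2. With day 14 replicate 3 left out, the calls of miR-369-5p on days 1, 4 and 7 (-0.26, -0.19 and -0.23), miR-154 on days 1 and 14 (-0.21 and -0.27), miR-300-3p on both days (-0.07 and -0.18) and miR-487b on day 7 (-0.20) were lost. miR-382 and miR-134 were called at no time. miR-134, known for its part at dendritic spines, was detected on 1 array of day 0 and 2 of day 1, and its changes of 0.31, 0.20, 0.06 and -0.27 had a standard error of 0.26.

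By the medians of their changes, the ends stood furthest apart on day 4. At the miR-127 to miR-136 end 6, 4, 4 and 5 of 7 members were called lower on days 1, 4, 7 and 14 and none higher, beside 43.3%, 44.6%, 45% and 50.2% of all miRNAs tested called lower. At the miR-379 to miR-410 end 12, 9, 9 and 15 of 23 were called lower, beside the same shares. On days 1 and 4, 1 and 3 were called higher, beside 16.5% and 19.9% of all miRNAs tested. Scaled to the 75th percentile of every miRNA, the first end had 4, 2, 1 and 1 lower and 0, 1, 0 and 0 higher. The other end then had 10, 3, 1 and 2 lower and 3, 12, 9 and 1 higher, so on days 4 and 7 its balance turned. Of all 231 miRNAs tested, 73 were then lower and 72 higher on day 4 and 62 and 78 on day 7. Under the main scaling those counts were 103 and 46 on day 4 and 104 and 39 on day 7. So the balance of all miRNAs became even on day 4 and turned only on day 7. Without the third array of day 14 the first end had 3, 3, 1 and 3 lower and none higher. The other end had 7, 7, 4 and 8 lower and 3, 8, 4 and 0 higher. Of the 234 miRNAs then tested, 68, 87, 85 and 92 were lower and 57, 63, 55 and 45 higher. The median change of the miR-127 to miR-136 end was -0.42, -0.37, -0.36 and -0.43, and that of the miR-379 to miR-410 end -0.31, 0.01, -0.27 and -0.42. The miR-379 to miR-410 median lay above the other under each of the 5 scalings. The difference was 0.10 to 0.23 on day 1, 0.31 to 0.47 on day 4, 0.10 to 0.29 on day 7 and 0.01 to 0.03 on day 14. Scalings with 1 factor per array, or none, had to give the same difference (0.38 on day 4). Quantile normalisation and the deposited table gave 0.31 and 0.47 on that day. No test was made over the members of an end, since they share hairpin transcripts and are not replicates.

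Within an array, the median level of the miR-379 to miR-410 end minus that of the miR-127 to miR-136 end does not depend on a scaling factor. Over the 20 members detected everywhere it was 0.11, 0.20 and 0.04 on the day 0 arrays, 0.21, 0.24 and 0.26 on day 1, 0.19, 0.27 and 0.23 on day 4, 0.25, 0.26 and 0.26 on day 7, and 0.17, 0.05 and 0.38 on day 14. Days 1 and 7 lay above all day 0 arrays, and days 4 and 14 overlapped with them. Against day 0 the difference grew by 0.12, 0.11, 0.14 and 0.08, beside a pooled SD of 0.09. When day 14 replicate 3 was left out, where more members enter, the growth was 0.35, 0.28, 0.23 and 0.03 on days 1, 4, 7 and 14. By this measure day 4 was not the widest, and on day 14 the growth lay within the spread between arrays.

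Between neighbouring times after injury, most calls in the region fell between day 1 and day 4. Of the 30 members 9 were called, all higher (miR-337, miR-299, miR-376b-3p, miR-376c, miR-377, miR-409-3p, miR-495, miR-541 and miR-543*), against 26% of all miRNAs tested called higher and 48.9% called in either direction, so the share higher was close to that of all miRNAs. The largest was miR-377 (at least 2.36-fold on the levels as scaled here). It passed the filter only through days 4 and 7, where all arrays detected it, so its call is no independent evidence of a rise. Next by size were miR-541 at 1.03 ± 0.16 (2.05-fold higher, adjusted p = 2.94e-04) and miR-376b-3p at 0.67 ± 0.13 (adjusted p = 0.00102). miR-337, miR-299, miR-376b-3p and miR-377 were higher under all 5 scalings, against 18.6% of all miRNAs tested. Without day 1 replicate 2 the number called was 14, beside 69 higher and 38 lower of all 231 tested. Without day 1 replicate 3 it was 5, beside 50 and 43. Without the third array of day 14, 9 were higher and miR-539 was lower (-0.62), beside 59 higher and 75 lower of the 234 miRNAs then tested.

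From day 4 to day 7 no member was called by limma (7 lower and none higher at an unadjusted p under 0.05), against 4.76% of all miRNAs tested. Leaving out day 1 replicate 1, day 1 replicate 2, day 14 replicate 2 or day 14 replicate 3 gave 1, beside 3 to 5 higher and 9 to 12 lower of all tested. From day 7 to day 14 the call was lower for miR-376b-3p (-0.48), miR-409-3p (-0.62), miR-495 (-0.42) and miR-541 (-0.67), against 6.49% called lower and 10.8% called in either direction. None was left without day 7 replicate 1, without day 7 replicate 2 or without day 7 replicate 3, beside 3 to 4 higher and 5 to 6 lower of all tested. Without day 14 replicate 3, where both groups shared a slide, 5 were called, beside 4 higher and 23 lower of the 234 miRNAs then tested.

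Set against the region's own median, which needs no scaling factor per array, 22, 19, 12 and 4 of the 30 members were called apart from it on days 1, 4, 7 and 14, against 63.2%, 59.7%, 57.6% and 51.9% of all miRNAs tested. Of the members called, 19, 17, 9 and 1 were above the median and 3, 2, 3 and 3 below. That median rests on the levels of the members in the middle of the range, and on day 1 it stood 0.65 below day 0 while the members' median change was -0.39. With the region's mean in its place, an alternative added after the data were seen, 19, 25, 13 and 4 were called, against 51.1%, 66.2%, 59.7% and 51.9%. By the mean 10, 13, 9 and 1 were above and 9, 12, 4 and 3 below, so the excess above on days 1 and 4 depended on the centre chosen. Of the members called, 13, 15, 12 and 4 had the same call under both.

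On day 1 miR-299, miR-376c and miR-377 lay below the region's middle by both measures. Among those above it by both were miR-323 (1.19 ± 0.11 from the median, adjusted p = 1.98e-06), miR-410 (0.78 ± 0.09) and miR-376a (0.69 ± 0.07). On day 4 miR-136 (-0.33 ± 0.09, adjusted p = 0.00686) and miR-376b-5p (-0.38 ± 0.14, adjusted p = 0.0343) lay below the median. Among those above it were miR-376b-3p (0.66 ± 0.06), miR-495 (0.60 ± 0.07), miR-323 (0.98 ± 0.11) and miR-541 (0.88 ± 0.12). On day 7 miR-434, miR-154 and miR-539 were below (-0.27, -0.20 and -0.84) and 9 were above, among them miR-541 (0.60), miR-323 (0.40), miR-376b-3p (0.39) and miR-376a (0.36). On day 14 miR-434, miR-329 and miR-376b-5p were below (-0.22, -0.22 and -0.64) and miR-376a above (0.45). Without day 0 replicate 1 this last count was 2. With the third array of day 14 left out, the counts were 19, 22, 18 and 8.

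The arms of a hairpin are cut from one precursor, and their ratio within an array is free of the scaling factor. The log2 ratio of miR-376b-3p to miR-376b-5p, taken from its day 0 mean, was -0.18, -0.03 and 0.21 on day 0, 0.41, 0.38 and 0.31 on day 1, 0.96, 1.10 and 1.07 on day 4, 0.50, 0.83 and 0.58 on day 7, and 0.41, 0.45 and 0.90 on day 14. No injured array reached the day 0 range, and the shift was largest on day 4 (1.04; two-sided exact permutation p = 0.1, the smallest that 3 arrays against 3 allow). The ratio of miR-136 to miR-136* shifted by -0.21, -0.23, -0.17 and -0.00, with exact permutation p = 0.2, 0.2, 0.3 and 1, so a difference between those arms was not shown. Of the 5 pairs of arms measured, that of miR-409-3p to miR-409-5p shifted by 0.69, 1.04 and 0.68 on days 1, 4 and 7 (exact permutation p = 0.1 each) and by 1.49 on day 14, where 1 array had miR-409-5p at the floor (exact permutation p = 0.2). The ratio of miR-382 to miR-382* shifted by 0.49 on day 1 (exact permutation p = 0.1), with miR-382* detected on 1 of 3 arrays, and by 0.18, -0.11 and 0.28 later. That of miR-379 to miR-379* shifted by -0.12, -0.08, -0.04 and 0.25 (exact permutation p = 0.2, 0.3, 0.6 and 0.1), with all day 14 arrays above those of day 0. Adjusted over all 20 tests, no exact permutation p went below 0.222.

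**Figure D5:**
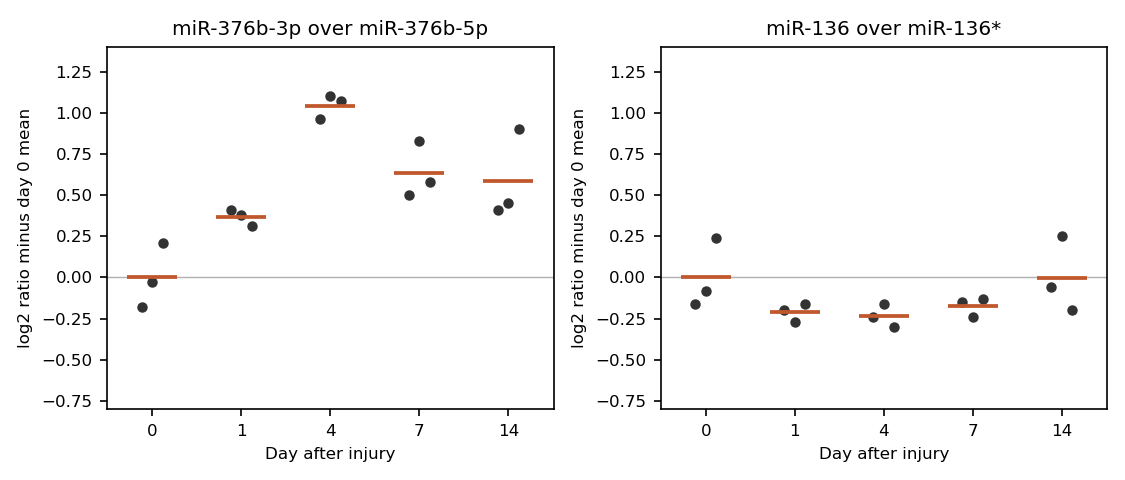
Log2 ratio of the arms of a hairpin within each array, minus its day 0 mean (y axis), by day after injury (x axis), for miR-376b (left) and miR-136 (right); points are arrays and bars are means of 3. The miR-376b ratio rises to 0.96 to 1.10 on day 4, and the miR-136 ratio stays between -0.30 and 0.25.

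Another 19 miRNAs of the region are on the array outside the list, of which 13 were detected on no array and 4 could be tested. On day 1 miR-379* fell like its partner arm, by -0.65 ± 0.11 (adjusted p = 3.88e-04) under all 5 scalings. On day 14 it stood at -0.55 ± 0.11, called under 1 of the 5 scalings, against -0.30 ± 0.12 for miR-379. miR-382* fell on day 1 by 0.58 (adjusted p = 0.00225) and miR-409-5p was called on day 14 (-1.97 ± 0.74, adjusted p = 0.0309), where replicate 3 lay at the floor (-10.73). Without that array miR-409-5p was called lower on days 1, 4 and 14 (-0.66, -0.66 and -0.63). miR-341 went the other way: it was -4.47, -4.16 and -4.29 on day 0, -3.68, -3.49 and -3.73 on day 1, and -3.95, -3.85 and -4.08 on day 4. Its arrays of both later days lay above day 0, with 0.67 ± 0.11 on day 1 (adjusted p = 3.60e-04) under all 5 scalings, and 0.35 ± 0.11 on day 4 (adjusted p = 0.0167) under 4.

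Marker miRNAs of other cells moved at the same times. Their counts stand beside 43.3% of all miRNAs tested called lower and 16.5% called higher on day 1. On day 1, 3 of 3 mesenchyme markers (miR-199a-3p, miR-199a-5p and miR-214) were lower under each scaling, their summed scaled level being 6.55 to 7.63 on day 0 and 3.84 to 4.57 on day 1, and on day 4 it was 5.95 to 6.97. Both endothelial markers were lower on day 1 (3.16 to 3.45 against 2.18 to 2.51), and 1 to 2 over the 5 scalings. Of 5 glial markers, listed because Schwann cells fill the nerve, 4 could be tested and 3 were lower (16.9 to 25.9 against 11.1 to 14.7). Over the 5 scalings 2 to 3 of them were lower. Of 5 leukocyte markers 3 were higher (1.62 to 1.92 against 3.17 to 4.26), under each scaling. Of 7 neuron markers 3 were higher and 3 lower on day 1, with 2 to 3 higher and 0 to 3 lower over the 5 scalings. On day 14, 5 were lower (4 to 5 over the scalings), beside 50.2% of all miRNAs tested. Of 5 muscle markers 1 was lower on day 1 (0 to 1 over the scalings), with a sum that ran from 0.738 to 16.3 among the day 0 arrays alone. For erythrocytes 1 of 2 was higher (0 to 1 over the scalings), and for smooth muscle 1 of 2 (1 under each scaling). Each marker listed was detected on at least 1 array, and the part of these cells in the changes of the region was not tested.

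A different miRNA cluster, the polycistron of miR-322, miR-503, miR-351, miR-450a and miR-542 on the X chromosome, had its lowest level on day 1. The median change of the Dlk1-Dio3 miRNAs was -0.39 on day 1 and -0.43 on day 14. In that cluster 6 of 7 members were lower on day 1 (5 to 7 over the 5 scalings), beside 43.3% of all miRNAs tested. Their median was -0.88, and their summed scaled level was 1.01 to 1.24 on day 0 and 0.587 to 0.689 on day 1. On day 7, 4 were higher (4 to 7 over the scalings) and none lower, with a median of 0.33, beside 16.9% of all miRNAs tested called higher. There 13 of the 30 Dlk1-Dio3 miRNAs were lower and none higher, beside 45% of all miRNAs tested called lower. That count was 5 lower and 4 higher without day 14 replicate 3, beside 85 and 55 of the 234 miRNAs then tested. Scaled to the 75th percentile of every miRNA it was 2 lower and 9 higher, beside 62 and 78 of 231. The difference between that cluster and the Dlk1-Dio3 miRNAs was not tested.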

How the data were processed

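The samples were hybridised to 1-colour Agilent miRNA arrays and, per the file headers, scanned images were read in Agilent Feature Extraction, version 10.7.3.1. The deposited intensity values (processed signal per spot, background-subtracted) were averaged first by probe and then by miRNA, leaving out spots marked as outliers. They were divided by each array's 75th percentile over the 164 miRNAs detected on all arrays, set to a floor of 5.87e-04 and log2-transformed. The deposited value table holds log2 intensities made by the authors, with scaling not stated; against each array's own total signal they correlated at 0.9956 to 0.9992, and the column medians were 4.1158 except on day 14 replicate 3 (0.8341).

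Groups were fitted together in limma 3.58.1 (R 4.3.3) over the 231 miRNAs for which some group had the miRNA detected on each of its 3 arrays, with Benjamini-Hochberg adjustment within each comparison and a threshold of 0.05. The step was tested on simulated data. The 4 other scalings, other background corrections, filters, floors, blocks and left-out arrays were alternatives. Members and lists were chosen with earlier results of these data known. miR-127, miR-136, miR-379 and miR-410 are given with their statistics by rule, as are members called the same way under all 5 scalings on the days that held; other members were described after their values were seen. Same-numbered arrays of different groups did not deviate together (r from -0.74 to 0.64, median -0.01). With 3 arrays a group this cannot settle whether replicate numbers pair samples, and the labels state no pairing. The number of arrays limits the precision.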

Additional observations from a re-analysis of the deposited data

Results flagged for a closer look

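The limma calls between neighbouring times described above make up 13 flagged results, all of them changes of single miRNAs, so that their effects against day 0 differ. They are the same calls and no further test. From day 1 to day 4 the changes were 0.41 for miR-337, 0.44 for miR-299, 0.67 for miR-376b-3p, 0.43 for miR-376c, 1.31 for miR-377, 0.42 for miR-409-3p, 0.40 for miR-495, 1.03 for miR-541 and 0.66 for miR-543*. The call of miR-376c held under 2 of the 5 scalings. For miR-377, which passed the filter only through days 4 and 7, the fitted value rests on day 1 arrays that did not detect it. The bound of at least 2.36-fold, on the levels as scaled here, stands in its place. From day 7 to day 14 the changes were -0.48 for miR-376b-3p, -0.62 for miR-409-3p, -0.42 for miR-495 and -0.67 for miR-541. None of these was called when any single array of day 7 was left out. Groups of 3 arrays were not tested for single arrays far from the rest.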

How the results depend on the processing

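Counts are of the 30 members against day 0 unless other days are named. With the 75th percentile of every miRNA, 3 were higher on day 1, and 13 higher and 5 lower on day 4. On day 7 it gave 9 and 2, and on day 14 1 and 3. It called 16 from day 1 to day 4 and 1 from day 4 to day 7. Of all 231 tested, 54, 72, 78 and 72 were then higher and 85, 73, 62 and 54 lower on days 1, 4, 7 and 14. From day 1 to day 4, 83 of them were higher and 45 lower, and from day 4 to day 7, 11 and 9. Quantile normalisation gave 4 higher on day 1, 7 higher on day 4, 2 and 5 on day 7, 1 and 12 on day 14, 14 from day 1 to day 4 and 2 from day 4 to day 7. Of all 231 tested it called 56, 67, 59 and 60 higher and 86, 85, 74 and 79 lower on days 1, 4, 7 and 14. From day 1 to day 4 it called 75 of them higher and 68 lower, and from day 4 to day 7, 18 and 14. Without scaling 6 were lower on day 7, 1 higher and 1 lower on day 14, and 1 was called from day 4 to day 7. Of all 231 tested, 41 were then higher and 85 lower on day 7, 64 and 41 on day 14, and 22 and 5 from day 4 to day 7. The deposited table gave 3 higher on day 1, 5 higher on day 4, 2 and 4 on day 7, 1 and 12 on day 14, 1 from day 4 to day 7 and 2 from day 7 to day 14. Of the 230 tested in it, 48, 61, 55 and 54 were higher and 61, 76, 61 and 69 lower on days 1, 4, 7 and 14. From day 4 to day 7, 8 of them were higher and 14 lower, and from day 7 to day 14, 10 and 11. In that order of scalings, miR-379 turned on day 7 (0.04, 0.05 and, in the deposited table, 0.13) and on day 14 (0.06, and 0.08 without scaling). miR-410 turned on day 7 (0.23, 0.21 and 0.25) and day 14 (0.15, 0.04, 0.18 and 0.03), on day 1 without scaling (-0.01), and on day 7 without day 14 replicate 3 (0.02, the top of a leave-one-out range from -0.22).

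The scanner software's total signal gave 0 higher on days 1 and 4, 4 from day 1 to day 4 and 1 from day 7 to day 14. Normexp, run on spot and background medians, gave 9 lower on day 1, 0 higher and 7 lower on day 4, and 2 from day 1 to day 4 and from day 7 to day 14. With miRNAs detected on all 15 arrays only, 0 were higher on day 4 and 2 called from day 7 to day 14. An intensity trend, the slide as a random block and the replicate block each gave 2 higher on day 1, and the slide block 1 from day 4 to day 7. Fits of the 2 groups compared alone gave 11 lower on day 1, 2 higher on day 7 and 10 from day 4 to day 7. Counts over all miRNAs are not given for these settings, so the members' counts cannot be read as particular to the region. The labels state no pairing by replicate number, and the replicate block moved no other count by over 1.5 times.

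Relative to the region median, the deposited table called 14 and 5 on days 1 and 7, and total signal 13, 11 and 4 on days 1, 4 and 7. The change of the difference between the ends was 0.29 and 0.25 with quantile normalisation on days 4 and 7, 0.23, 0.36 and 0.32 in the deposited table on days 1, 4 and 7, and on day 4 0.24 with all members at the floor and 0.23 as a mean over members.

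Leaving out 1 array at a time gave 1 to 3 higher and 10 to 19 lower on day 1, 1 to 8 higher on day 4, 0 to 4 higher and 5 to 16 lower on day 7, and 11 to 28 lower on day 14. Of all miRNAs tested it gave 33 to 57 higher and 68 to 116 lower on day 1, and 40 to 63 higher on day 4. On day 7 it gave 32 to 55 of them higher and 85 to 109 lower, and on day 14, 92 to 130 lower. Between neighbouring times it gave 5 to 14, 0 to 1 and 0 to 6 members called, and relative to the region median on day 14, 2 to 8. Of all miRNAs tested, those between neighbouring times were 47 to 69, 1 to 5 and 3 to 25 higher and 36 to 75, 2 to 12 and 5 to 26 lower. The change of the difference between the ends ran from 0.08 to 0.35, 0.07 to 0.28 and 0.10 to 0.23 on days 1, 4 and 7. Without day 14 replicate 3, 1 and 2 members were higher under all 5 scalings on days 1 and 4, and 2 lower on day 14. The cause of these moves was not tested. For the miRNAs described in full, 338 of 398 values under other settings and 441 of 465 with 1 array left out kept their direction and their side of the threshold. Members near the background on day 14 replicate 3, such as miR-134, miR-377 and miR-543*, are limited by signal.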
